A study of Mus musculus with 45 samples.

Results

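The naive pluripotency factors are described here as a set of 10 genes, Klf2, Klf4, Klf5, Esrrb, Nr5a2, Zfp42, Tbx3, Tcl1, Tfcp2l1 and Nanog, chosen by name and followed through the first 3 days of embryoid body (EB) formation. These genes had 21 of the 45281 features of the array, and 19 of those 21 were among the 16896 features detected well enough to be tested, so that all 10 genes were among the 9666 genes tested. Mouse embryonic stem cells (ESCs) of strain 129/Sv//Ev were grown in serum with LIF and then let differentiate without LIF as EBs in hanging drops, which were collected at d2 and d3. The 45 arrays fell into 12 groups, 3 stages (ESCs and EBs of d2 and d3) in 4 genotypes. WT comprised the lines CCE, CCB, CCH and CCF. Smad2 KO cells carried the Smad2 tm1Rob allele and comprised the clones KT11, KT12, KT15 and KT17. Smad3 KO cells were 4 clones derived from the single WT line CCE with a Cas9 nickase, and Smad2/3 DKO cells were 4 clones derived in the same way from the single Smad2 KO clone KT15, so that clones of these genotypes share 1 parent. The ESC groups of the 3 knockouts held 3 arrays each and all other groups held 4. The number of EBs pooled into a sample, 1250 in WT as in Smad3 KO and 2500 or 5000 in the others, cannot be told apart from genotype. In Smad2 KO it was 2500 at d2 and 5000 at d3, so that there it cannot be told apart from stage either. In Smad2/3 DKO it was 5000, apart from 2500 for clone KT15.2G9 at d2. The question was whether the naive genes stayed on in knockout EBs because they failed to fall between ESC and d2, or because they rose again between d2 and d3.

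As background, ESCs in serum and LIF hold a network of transcription factors that keeps them in the naive state of the preimplantation epiblast. LIF acts through Stat3, which maintains Klf4 and Tfcp2l1, while Tbx3 is tied to phosphoinositide signalling and Nanog, Esrrb and Nr5a2 support Oct4 and one another. When LIF is withdrawn the network is shut down and cells pass to a primed state marked by Fgf5 and Otx2, from which Nodal signalling through Smad2 and Smad3 induces the primitive streak.

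Levels are given as log2 of the background-corrected and quantile-normalized signal, where 1 unit is a doubling, and a feature was taken as detected on an array where its detection p-value was under 0.01. Where no library of a group detected a gene, its difference from another group is given as a bound (at least N-fold), set against the lowest detected signal, and where neither group detected it no size is given. Values of a group are listed in the order of the replicate numbers. A difference was called at an adjusted p under 0.05 over all features tested. Shares of all genes are of genes called in this way. Counts of members at an unadjusted p under 0.05 use a looser threshold, and the share of all genes at that threshold is not given. Those counts therefore cannot be set against the shares of all genes printed beside them. The median signal was 111 to 243 and 11338 to 14256 features were detected on each array, with a lowest detected level of 6.55 to 7.44. Smad3 transcripts were at 7.67 to 9.83 in WT and 7.89 to 10.1 in Smad2 KO libraries, and were not detected, at 4.83 to 5.62, in Smad3 KO and Smad2/3 DKO libraries, apart from 3 libraries that went against their labels. The Smad2 feature gave 8.37 to 9.66 in WT and 8.55 to 9.70 in Smad2 KO and was no check of those labels. Smad3 was at 5.19 and not detected in the library labelled d2 Smad2 KO replicate 4 (clone KT17), and it was detected, at 9.75 and 9.46, in the libraries labelled ESC Smad3 KO replicate 4 (clone CCE.2B7) and d2 Smad2/3 DKO replicate 4 (clone KT15.2D5). Below, the parent name before the point is mostly left out of such clone names. On the first principal component, computed without the 10 genes and holding 33.9% of the variance, the other ESC libraries lay between -76.0 and -52.6 and the other EB libraries between 1.78 and 58.2. The library labelled d2 Smad2 KO replicate 4 lay at -70.7 and that labelled d3 Smad2 KO replicate 4 (clone KT12) at -52.5, on the side of the ESCs, while that labelled ESC Smad3 KO replicate 4 lay at 36.0, among the EBs. These 4 libraries are kept in their labelled groups unless stated, and results of the 10 genes that rest on them are mostly also given without them. Counts of the other gene lists are given with all libraries only. They were picked by their profiles, so that p-values without them are not independent of the data.

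In WT cells the set fell early. All 10 genes fell between ESC and d2, by 0.93 for Nanog to 4.32 for Esrrb on the log2 scale among the 7 genes still detected at d2, with Klf4, Tbx3 and Tcl1 no longer detected in any d2 library. The median of the 10 was -3.37, and -3.18 with these 3 at their bounds, against 0.02 over all 9666 genes tested, of which 14.0% fell. Between d2 and d3 only Klf2 and Zfp42 fell further and Tbx3 rose, against 2.17% of all genes that fell and 3.78% that rose. By d3, 9 of the 10 genes were below the ESC level, all but Nanog, where 16.4% of all genes were, and the call for Tbx3 (-1.43, adjusted p = 0.045) was lost when any of 9 of the 12 WT libraries was left out (0.054 to 0.13) and by 2 of its other 3 features (-1.18 and -0.61, adjusted p = 0.18 and 0.14). In bulk EBs, fewer cells that express a gene and less RNA per cell cannot be told apart.

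**Figure D1:**
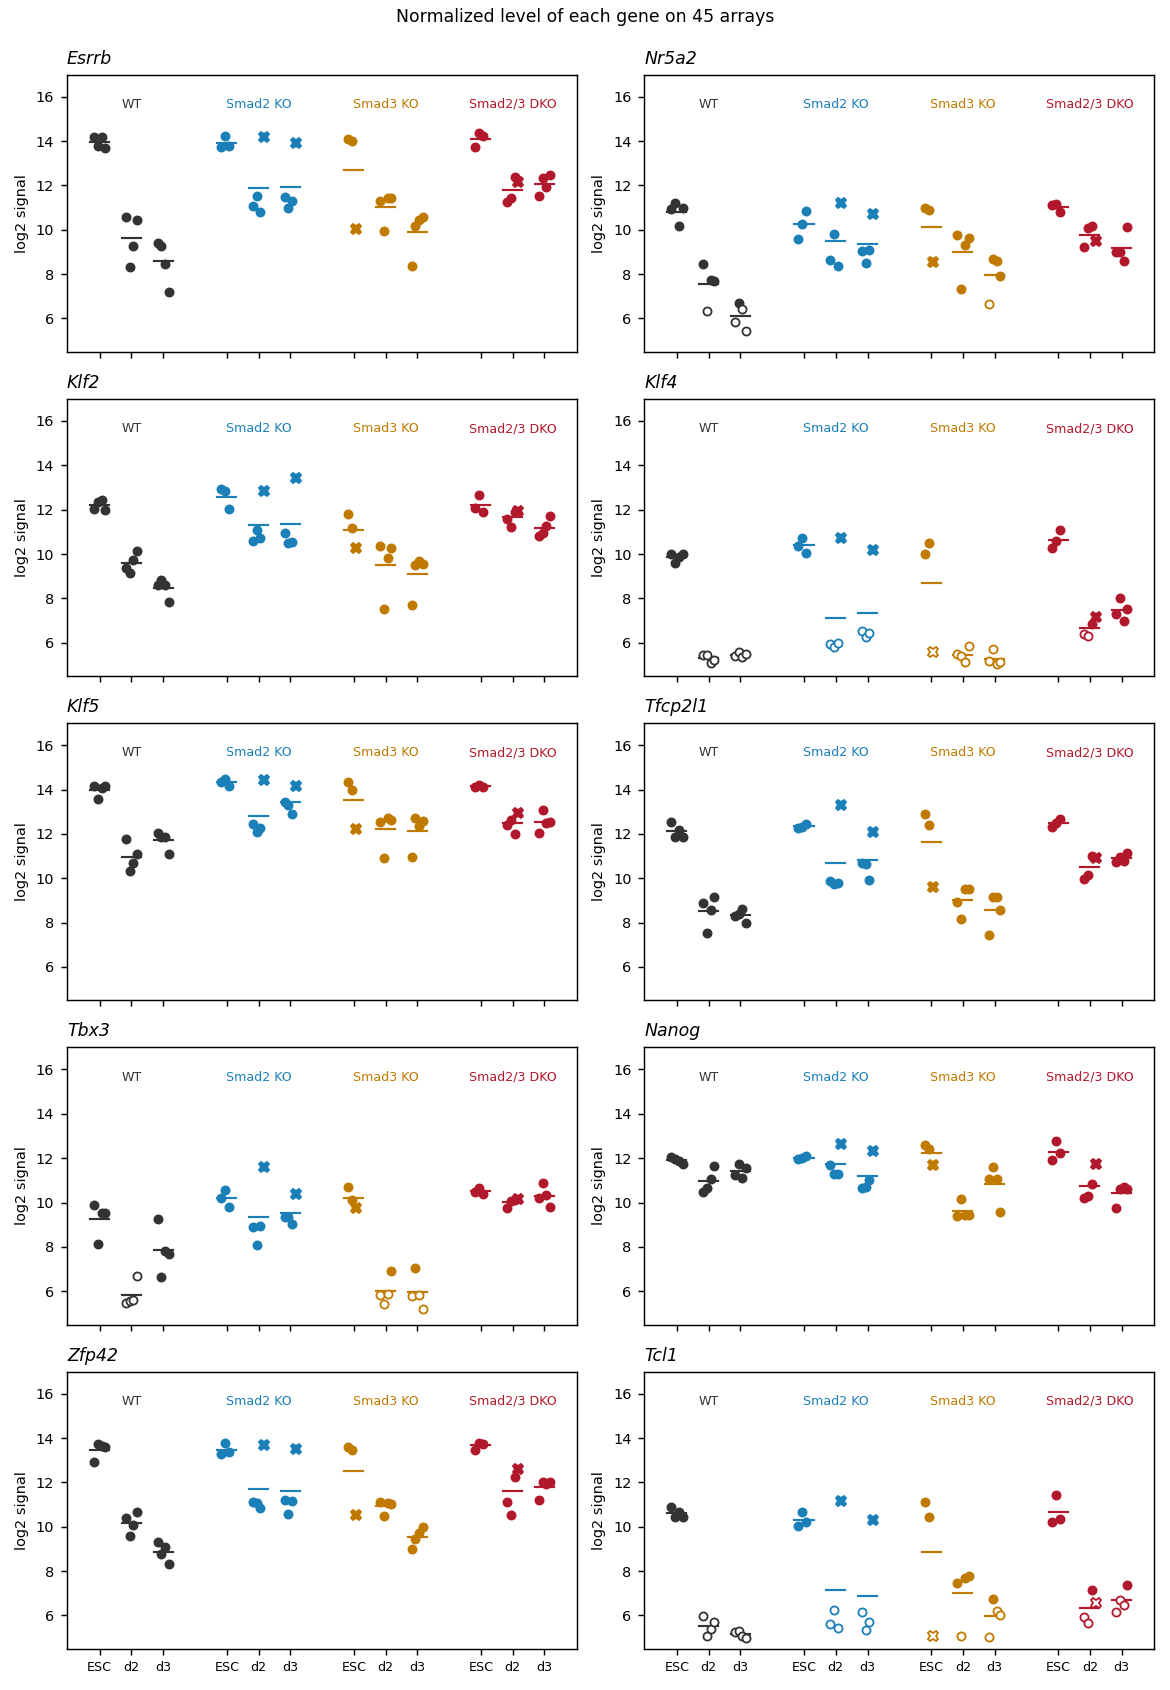
Normalized log2 signal (vertical axis) of each gene in every library, by genotype and by stage along the horizontal axis (ESC, d2, d3). Filled points are detected and open points not detected, crosses mark the 4 libraries that stood apart, and bars are group means over all libraries of a group. WT points drop at d2 in every panel, while those of Smad2/3 DKO drop less for Esrrb, Nr5a2, Klf2 and Tfcp2l1 and hardly at all for Tbx3.

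Among the nuclear receptors, Esrrb binds the regulatory regions of many naive genes as an orphan receptor. In WT it gave 14.18, 13.79, 14.17 and 13.71 in ESCs, 10.56, 8.33, 9.27 and 10.42 at d2 and 9.41, 9.27, 8.48 and 7.21 at d3. The Smad2/3 DKO clones gave 13.74, 14.35 and 14.21 in ESCs, 11.26, 11.42, 12.37 and 12.17 at d2 and 11.50, 12.35, 11.93 and 12.48 at d3. ESCs of both genotypes overlapped, whereas at d2 and again at d3 every Smad2/3 DKO library lay above every WT library. The WT mean fell by 4.32 ± 0.52 (SE) to d2 (adjusted p = 6.3e-05) and the Smad2/3 DKO mean by 2.29 ± 0.32 (adjusted p = 0.00062). From d2 to d3 Esrrb changed by -1.05 in WT (adjusted p = 0.28) and by 0.26 in Smad2/3 DKO (95% interval -0.39 to 0.90, adjusted p = 0.70), so that no later rise was called. At d3 the level in Smad2/3 DKO was 3.47 ± 0.64 above WT (adjusted p = 0.0018). A second Esrrb feature, detected on 6 of the 45 arrays where the first was detected on 45, gave 0.07 (adjusted p = 0.86).

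Nr5a2, which can stand in for Oct4 in reprogramming and binds the Oct4 promoter, behaved much as Esrrb did. In WT it gave 10.93, 11.20, 10.15 and 11.002 in ESCs, 8.44, 6.35, 7.75 and 7.69 at d2 and 5.86, 6.70, 6.42 and 5.44 at d3, where it was detected in 1 of 4 libraries. Corresponding values in Smad2/3 DKO were 11.12, 11.16 and 10.81 in ESCs, 9.22, 10.09, 10.17 and 9.51 at d2 and 9.02, 9.01, 8.59 and 10.12 at d3. It was thus detected in every Smad2/3 DKO library, and at d2 and d3 these lay above all WT libraries. The fall to d2 was 3.26 ± 0.40 in WT and 1.28 ± 0.34 in Smad2/3 DKO (adjusted p = 0.023, and 0.0503 to 0.078 without ESC replicate 2 or 3 or d2 replicate 1 or 4). From d2 to d3 WT changed by -1.45 (adjusted p = 0.055) and Smad2/3 DKO by -0.56 (adjusted p = 0.37), and the d3 difference was 3.08 ± 0.51 (adjusted p = 0.00087). A second Nr5a2 feature, detected on 8 arrays against 40 for the first, gave a d3 difference of 0.34 (adjusted p = 0.57) and a change to d2 in Smad2/3 DKO of -0.88 (adjusted p = 0.087).

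Zfp42, also called Rex1, is a zinc finger protein used as a marker of naive cells and a known target of Oct4. In WT it gave 12.94, 13.72, 13.62 and 13.60 in ESCs, 10.38, 9.58, 10.07 and 10.68 at d2 and 9.30, 8.77, 9.09 and 8.33 at d3. Levels in Smad2/3 DKO were 13.48, 13.77 and 13.75 in ESCs, 11.12, 10.54, 12.24 and 12.59 at d2 and 11.21, 12.03, 11.91 and 12.02 at d3. The d2 groups overlapped, since clone 2G9 at 10.54 lay below WT line CCF at 10.68, and the d3 groups did not. WT fell by 3.29 ± 0.27 to d2 (adjusted p = 3.3e-06) and by a further 1.31 ± 0.27 to d3 (adjusted p = 0.019), and the second fall was not called without d2 replicate 1, d2 replicate 4, d3 replicate 3 or d3 replicate 4 (adjusted p of 0.051 to 0.062). Zfp42 in Smad2/3 DKO fell by 2.04 ± 0.43 to d2 (adjusted p = 0.0065) and then changed by 0.17 (interval -0.70 to 1.03), leaving it 2.92 ± 0.47 above WT at d3 (adjusted p = 0.00072).

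Zfp42 and Esrrb had the most alike group means over the 12 groups of all pairs of the set (Pearson r = 0.993 without the 4 libraries). Promoter windows of 300 bases, from 250 bases before the annotated start to 50 after it, existed for 8 of the 10 genes. Of these 8 only Zfp42 and Esrrb held a searched motif, and their windows with a match are shown for that reason. A link between motifs and alike means was not tested. The windows come from RefSeq on GRCm38.p6, chr8:43306960-43307259 on the minus strand for Zfp42 and chr12:86360867-86361166 on the plus strand for Esrrb, and capitals mark the matches.
Zfp42: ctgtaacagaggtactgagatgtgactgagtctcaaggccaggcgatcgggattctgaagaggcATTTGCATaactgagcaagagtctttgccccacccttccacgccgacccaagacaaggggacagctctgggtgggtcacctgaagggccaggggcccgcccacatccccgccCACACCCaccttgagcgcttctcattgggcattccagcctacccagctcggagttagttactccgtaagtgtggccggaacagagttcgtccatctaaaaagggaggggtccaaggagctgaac
Esrrb: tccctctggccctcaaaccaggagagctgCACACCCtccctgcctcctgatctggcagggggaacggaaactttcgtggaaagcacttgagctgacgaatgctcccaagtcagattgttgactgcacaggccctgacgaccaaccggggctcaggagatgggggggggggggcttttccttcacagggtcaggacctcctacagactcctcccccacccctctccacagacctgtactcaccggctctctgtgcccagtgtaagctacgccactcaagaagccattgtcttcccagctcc
The Zfp42 window holds the octamer ATGCAAAT, the Oct factor site, on the opposite strand starting 186 bases before the start, and the Klf motif CACACCC starting 74 bases before it. The Esrrb window holds CACACCC starting 221 bases before the start. A second Esrrb window, chr12:86421394-86421693, holds no match. Over both strands CACACCC was found in 2 of the 11 windows that exist for 8 of the 10 genes, against 7.95% of all 32851 promoter windows, and ATGCAAAT in 1 of 11 against 1.74%. The nuclear receptor half-site AAGGTCA, present in 4.72% of all windows, and the Stat motif TTCCNGGAA, in 1.15%, were found in none of the 11. The motifs do not overlap one another in these windows, and these matches describe the letters only.

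The Klf proteins are zinc finger factors with overlapping functions in naive cells. Klf2, which is held up by Mek inhibition rather than by LIF, gave 12.02, 12.34, 12.43 and 12.00 in WT ESCs, 9.37, 9.15, 9.74 and 10.13 at d2 and 8.62, 8.81, 8.62 and 7.83 at d3. The clones of Smad2/3 DKO gave 12.06, 12.64 and 11.88 in ESCs, 11.58, 11.22, 11.88 and 11.95 at d2 and 10.79, 10.95, 11.25 and 11.72 at d3. The lowest Smad2/3 DKO EB library was thus above the highest WT EB library. Klf2 fell by 2.60 ± 0.25 to d2 in WT (adjusted p = 1.1e-05) and by a further 1.13 to d3 (adjusted p = 0.024, lost when any of 5 of the 8 WT EB libraries was left out, with adjusted p of 0.060 to 0.070), whereas the change to d2 in Smad2/3 DKO was -0.54 (interval -1.13 to 0.06, adjusted p = 0.20). By d3 Smad2/3 DKO was 1.02 below its own ESCs (adjusted p = 0.018, but 0.083 without ESC replicate 3 and 0.053 without d3 replicate 1) and 2.70 ± 0.57 above WT (adjusted p = 0.0045).

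Klf5 fell less far in WT and did not stay down. WT gave 14.15, 13.56, 14.05 and 14.15 in ESCs, 11.77, 10.35, 10.69 and 11.09 at d2 and 12.05, 11.86, 11.86 and 11.11 at d3. EBs of Smad2/3 DKO gave 12.42, 12.64, 11.99 and 12.93 at d2 and 12.04, 13.06, 12.49 and 12.54 at d3, so that the genotypes separated at d2 and overlapped at d3, where the lowest Smad2/3 DKO library, at 12.04, was level with the highest WT library, at 12.05. The fall to d2 was 3.01 ± 0.29 in WT and 1.65 ± 0.26 in Smad2/3 DKO (both called), the later change in WT was 0.75 (interval 0.12 to 1.38, adjusted p = 0.16, upwards in 4 of 4 lines), and the d3 difference of 0.81 ± 0.37 was not called (adjusted p = 0.15).

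Klf4, a direct target of Stat3, was low or not detected in EBs of every genotype, apart from the 2 Smad2 KO libraries on the side of the ESCs at 10.72 and 10.18. In WT ESCs it gave 9.99, 9.60, 9.84 and 10.00, and no WT EB library detected it, the values being 5.46, 5.43, 5.07 and 5.24 at d2 and 5.40, 5.58, 5.36 and 5.51 at d3. Smad2/3 DKO ESCs gave 10.27, 10.60 and 11.06, d2 EBs 6.39, 6.30, 6.85 and 7.15, and d3 EBs 7.31, 8.01, 6.97 and 7.54. Detection therefore went from 2 of 4 Smad2/3 DKO libraries at d2 to 4 of 4 at d3, and 1 of those 2, at 7.15, was the d2 library that stood apart. Because Klf4 was not detected in WT EBs, the fold changes are bounds, with a fall to d2 of at least 8.54-fold in WT (adjusted p = 2.4e-09) and a d3 level in Smad2/3 DKO at least 1.71-fold above WT (adjusted p = 0.041). That call was lost when any single d3 WT or d3 Smad2/3 DKO library was left out (adjusted p of 0.056 to 0.099), and the other 2 Klf4 features gave differences of 1.54 (adjusted p = 0.086) and 0.80 (adjusted p = 0.50). These refits kept the d3 Smad2 KO library at 10.18, which shared the fit and its spread. Without that library the call was kept. Klf4 was the member with the largest change from d2 to d3 in Smad2/3 DKO, 0.79 ± 0.27 (interval 0.20 to 1.38), higher in 4 of 4 clones by 0.58 to 1.02. It did not pass the test (adjusted p = 0.14). Without the d2 library that stood apart it was higher in 3 of 3 clones and again did not pass (adjusted p = 0.067).

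Tfcp2l1, a Stat3 target that sustains the naive network, gave 12.54, 11.88, 12.16 and 11.88 in WT ESCs, 8.87, 7.54, 8.58 and 9.15 at d2 and 8.29, 8.38, 8.63 and 7.98 at d3. Smad2/3 DKO gave 12.29, 12.51 and 12.65 in ESCs, 9.96, 10.14, 10.99 and 10.92 at d2 and 10.75, 10.97, 10.80 and 11.15 at d3. The EB groups of the 2 genotypes did not overlap at either day. WT fell by 3.58 ± 0.30 to d2 and Smad2/3 DKO by 1.98 ± 0.26, neither changed from d2 to d3 beyond its spread (-0.21 and 0.42, adjusted p = 0.76 and 0.38), and the d3 difference was 2.60 ± 0.40 (adjusted p = 0.00051).

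Tcl1, a coactivator of Akt kinase, fell in WT and Smad2/3 DKO and was largely below detection in EBs. It gave 10.88, 10.44, 10.66 and 10.45 in WT ESCs and was not detected in any WT EB library, at 5.06 to 5.99 on d2 and 4.99 to 5.30 on d3, a fall of at least 14.3-fold to d2 (adjusted p = 4.4e-09). Smad2/3 DKO went from 10.20, 11.44 and 10.36 in ESCs to 5.91, 5.68, 7.15 and 6.54 at d2 and 6.18, 6.68, 6.47 and 7.40 at d3, and only clone 1F11, with 7.15 and 7.40, detected it on either day. With 1 of 8 d3 libraries of both genotypes above detection the d3 levels have no order, and the difference was not called (adjusted p = 0.21), although the test passed without the d3 library that stood apart (0.0035).

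Tbx3, a T-box factor that sustains self-renewal downstream of phosphoinositide signalling, showed the largest d2 difference from WT of the 10 genes in Smad2/3 DKO. In WT it gave 9.89, 8.14, 9.52 and 9.52 in ESCs, 5.45, 5.58, 5.58 and 6.71 at d2, when no library detected it, and 9.25, 6.62, 7.79 and 7.69 at d3. In Smad2/3 DKO it gave 10.48, 10.67 and 10.37 in ESCs, 9.78, 10.06, 10.13 and 10.18 at d2 and 10.22, 10.88, 10.35 and 9.80 at d3. Tbx3 thus disappeared from WT EBs at d2 and came back at d3, while in Smad2/3 DKO no stage difference was called (-0.47 to d2, adjusted p = 0.19, and -0.19 from ESC to d3, adjusted p = 0.61). Every d2 Smad2/3 DKO library nevertheless lay below every ESC library of that genotype, the highest at 10.18 against a lowest of 10.37. The WT fall was at least 5.66-fold (adjusted p = 0.00031) and its later rise at least 2.10-fold (adjusted p = 0.039), the latter lost when any of 6 of the 8 WT EB libraries was left out (adjusted p of 0.076 to 0.11) and by each of the other 3 Tbx3 features (adjusted p = 0.058, 0.25 and 0.29). At d2 Tbx3 was at least 9.65-fold higher in Smad2/3 DKO than in WT (adjusted p = 0.00088) and at d3 it was 2.47 ± 0.49 higher on the log2 scale (adjusted p = 0.0030), and the other 3 features were called at both days, with d3 differences of 1.79 to 2.65.

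In Smad3 KO EBs Tbx3 went the other way from Smad2/3 DKO. After 10.71, 10.13 and 9.76 in ESCs it gave 5.84, 5.44, 5.87 and 6.89 at d2 and 5.79, 7.07, 5.83 and 5.20 at d3, detected only in clone 2B7 on each day. All d3 Smad3 KO libraries but that of clone 2B7 were below all 4 d3 WT libraries, and the return seen in WT between d2 and d3 was not seen (-0.04, interval -0.95 to 0.87). The d3 level was 1.86 ± 0.49 below WT (adjusted p = 0.064, and 0.033 without the library that stood apart on d3), and the change from ESC to d3 was 2.80 more negative than in WT (adjusted p = 0.068, and 3.02 with adjusted p = 0.011 without the 4 libraries).

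Nanog, the homeodomain factor that guards the naive state, followed a pattern of its own. In WT it gave 12.03, 11.98, 11.88 and 11.72 in ESCs, 10.49, 10.66, 11.08 and 11.67 at d2 and 11.25, 11.73, 11.09 and 11.55 at d3. In Smad2/3 DKO it gave 11.90, 12.77 and 12.22 in ESCs, 10.18, 10.30, 10.82 and 11.74 at d2 and 9.77, 10.63, 10.68 and 10.62 at d3. It was therefore the only member for which every d3 Smad2/3 DKO library lay below every d3 WT library. WT fell by 0.93 ± 0.24 to d2 (adjusted p = 0.012), but a second Nanog feature changed by -0.20 (adjusted p = 0.70), and at d3 WT was not called below ESCs (-0.50, adjusted p = 0.13). Smad2/3 DKO fell by 1.54 ± 0.38 to d2 (adjusted p = 0.015, and 0.071 without ESC replicate 3), where the second feature gave -0.97 (adjusted p = 0.22), and was 1.87 below its ESCs at d3. The d3 difference from WT was -0.98 ± 0.41 (interval -1.85 to -0.11, adjusted p = 0.13), and -1.41 (adjusted p = 0.047) by the second feature.

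In Smad3 KO EBs Nanog had its lowest level of all groups at d2. The 4 clones gave 9.37, 10.16, 9.44 and 9.43 at d2, each below the lowest d2 WT library at 10.49, and 11.08, 11.61, 11.07 and 9.58 at d3, after 12.60, 12.44 and 11.70 in ESCs. The fall to d2 was 2.64 ± 0.43 (adjusted p = 0.015), and the later change of 1.23 ± 0.40 was upwards in 4 of 4 clones and not called (adjusted p = 0.24). Against WT at d2 Nanog was -1.37 ± 0.37 (adjusted p = 0.44), and it was called lower only without the d2 libraries that stood apart (adjusted p = 0.0499).

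In Smad2/3 DKO as a whole, 8 genes fell between ESC and d2, where 9.08% of all genes did, and Klf2 and Tbx3 did not pass the test. Without the d2 library that stood apart 7 fell against 8.55% of all genes. The median of the 10 changes was -1.82, against -3.37 in WT and 0.04 over all genes in Smad2/3 DKO. From d2 to d3 none of the 10 was called by limma in either direction, with 0.683% of all genes lower and 1 of the 10 (Klf4) at an unadjusted p under 0.05, and none without that library, when 7.88% of all genes were called either way. Intervals for this step ran from -1.26 for Nr5a2 at the low end to 1.38 for Klf4 at the high end. Within clones the step was upwards in 4 of 4 for Klf4, Esrrb, Tfcp2l1 and Tcl1, the last mostly below detection. It was upwards in 0 of 4 for Klf2 and Nr5a2, in 3 for Klf5 and Tbx3, in 2 for Zfp42 and in 1 for Nanog. The rises were 0.08 to 0.67 for Esrrb and 0.06 to 0.84 for Tfcp2l1. One of the 4 rests on the d2 library that stood apart. By d3, 9 genes were below the ESC level with all libraries and without those that stood apart, against 11.4% and 12.1% of all genes, and Tbx3 was not.

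**Figure D2:**
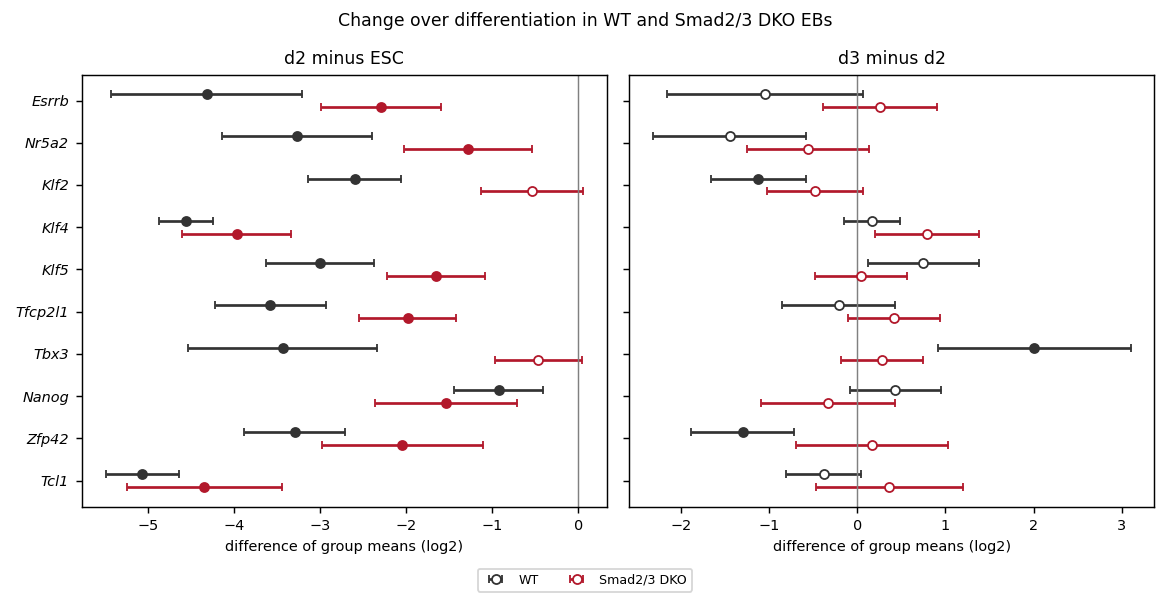
Difference of group means in log2 units (horizontal axis) for each gene (vertical axis), d2 minus ESC in the left panel and d3 minus d2 in the right panel, in WT (dark) and Smad2/3 DKO (red). Bars are 95% intervals, and filled points passed the test over all features while open points did not. Points of Klf4, Tbx3 and Tcl1 in WT use signals below detection as measured and are not sizes of change. In the left panel the Smad2/3 DKO points of Esrrb, Nr5a2, Klf2, Klf5, Zfp42 and Tfcp2l1 lie nearer to 0 than those of WT, that of Nanog lies further, and in the right panel no Smad2/3 DKO point passed the test.

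The d3 excess of Smad2/3 DKO over WT can be split exactly into the difference in ESCs, the difference in the change to d2 and the difference in the change from d2 to d3. For Esrrb these were 0.14, 2.03 and 1.31, for Nr5a2 0.21, 1.98 and 0.89, for Klf2 -0.00128, 2.06 and 0.64, and for Tfcp2l1 0.37, 1.596 and 0.63. For Zfp42 they were 0.20, 1.25 and 1.47. In the first 4 genes the larger share had thus arisen by d2. Without the d2 library that stood apart, the d2 differences from WT in these 4 genes were 2.04, 2.27, 1.96 and 1.83. Their d3 differences were 3.47, 3.08, 2.70 and 2.60. For Zfp42 the d2 difference was then 1.12 and the d3 difference 2.92, so that its larger share arose after d2. After d2 the WT means of Esrrb, Nr5a2, Klf2 and Zfp42 changed by -1.05, -1.45, -1.13 and -1.31 and those of Smad2/3 DKO by 0.26, -0.56, -0.48 and 0.17. Without the d2 library that stood apart the latter were 0.38, -0.64, -0.38 and 0.49. Klf4, Tbx3 and Tcl1 were not detected in WT at d2 and were not split. Klf5 and Nanog, with no d3 excess called, went another way. The difference from WT in ESCs, at d2 and at d3 was 0.17, 1.52 and 0.81 for Klf5, so that it shrank after d2. For Nanog it was 0.39, -0.21 and -0.98.

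These differences in change were also tested directly over all 45 arrays. With all libraries none of the 10 genes was called for the change to d2, from d2 to d3 or from ESC to d3, where 0.228%, 0.859% and 3.96% of all genes were called. At the looser unadjusted p under 0.05 there were 4, 1 and 6 of the 10. The change from ESC to d3 came closest, by 2.71 for Klf2 (adjusted p = 0.051), 2.72 for Zfp42 (0.057), 2.87 for Nr5a2 (0.057) and 3.33 for Esrrb (0.069). Without the 4 libraries 6 genes fell less to d3 than in WT, Klf2 (adjusted p = 0.0042), Klf4 (0.0064), Esrrb (0.0013), Nr5a2 (0.0077), Zfp42 (3.8e-05) and Tfcp2l1 (0.0021), against 5.19% of all genes, the d3 level of Klf4 in WT being below detection, and Nanog fell more (-1.38, adjusted p = 0.044). For the change to d2 only Tbx3 was called (adjusted p = 0.021, background 0.445%), from a d2 level in WT below detection, and for the change from d2 to d3 only Zfp42 (1.80, adjusted p = 0.012, background 1.22%).

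In Smad2 KO the calls rested on the 2 libraries on the side of the ESCs. With them in, no member was called for d2 against ESC, d3 against d2 or d3 against ESC, where 0.0828%, 0% and 0.0621% of all genes were called lower. At the looser unadjusted p under 0.05 there were 4, 0 and 4 of the 10. Without them all 10 genes were lower at d2 than in ESCs (9.67% of all genes), with a median of -2.27, and all 10 at d3 (12.0%), and between the days only Klf5 rose (0.95 ± 0.19, adjusted p = 0.023, against 3.30% of all genes), while the others changed by -0.62 to 0.61, Klf4 and Tcl1 being below detection on both days. Esrrb gave 13.74, 14.22 and 13.77 in Smad2 KO ESCs, then 11.07, 11.54, 10.79 and, in the library that stood apart, 14.16 at d2, and 11.49, 10.996, 11.31 and, in the library that stood apart, 13.89 at d3. Klf5 gave 12.44, 12.08 and 12.29 at d2 and 13.45, 13.29 and 12.91 at d3 in the kept libraries, which did not overlap, and 14.45 and 14.17 in the others. Against the change in WT no member was called with all libraries for any of the 3 steps, where 0.0103%, 0.0103% and 0.0517% of all genes were called. At the looser unadjusted p under 0.05 there were 5, 1 and 6 members. Without the 4 libraries Nr5a2 (3.35, adjusted p = 0.018) and Zfp42 (2.09, adjusted p = 0.011) fell less from ESC to d3, against 0.652% of all genes.

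In Smad3 KO, with all libraries, Tbx3 and Nanog fell to d2 and Zfp42, Tbx3 and Tfcp2l1 were lower at d3, against 1.25% and 1.83% of all genes. The calls for Nanog at d2 and for Zfp42 and Tfcp2l1 at d3 were lost when any of 4, 7 and 9 of the 11 libraries was left out (adjusted p of 0.052 to 0.066, 0.052 to 0.13 and 0.061 to 0.17), and none was called between the days, where 0.0310% of all genes were lower and 2 members had an unadjusted p under 0.05. Without the library labelled ESC Smad3 KO replicate 4 and the other libraries that stood apart, 8 fell to d2 (9.15% of all genes), 9 were lower at d3 (10.9%), and Zfp42 fell between the days (-1.40, adjusted p = 0.015, against 0.569%). The difference in change from WT was not called for any member with all libraries, where 0.0207%, 0.155% and 0.755% of all genes were called for the 3 steps. At the looser unadjusted p under 0.05 there were 6, 1 and 4 members. Without the 4 libraries only Tbx3 was called, from ESC to d3 (1.11% of all genes lower).

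Set against WT at the same stage, no member was called in ESCs of any knockout, where 0%, 0% and 0% of all genes were called higher in the Smad2 KO, the Smad3 KO and the Smad2/3 DKO and 1, 2 and 1 of the 10 had an unadjusted p under 0.05. The differences in ESCs ran from -0.58 to 0.92 in Smad2 KO, from -1.74 to 0.93 in Smad3 KO and from -0.00128 to 1.24 in Smad2/3 DKO. Without the library labelled ESC Smad3 KO replicate 4, those in Smad3 KO ran from -0.71 to 1.15, and again none was called. At d2 Tbx3 was the only member called with all libraries, in Smad2 KO (at least 6.07-fold, adjusted p = 0.013, not called without d2 WT replicate 1 or 2 at 0.059 and 0.055 or by 1 of the other 3 features at 0.15) and in Smad2/3 DKO, against 0.341% and 1.74% of all genes higher. None was called in d2 Smad3 KO (0.0103% of all genes higher, 3 members at an unadjusted p under 0.05). Without the d2 libraries that stood apart Tbx3 was called in Smad2 KO (at least 3.63-fold, against 1.21% of all genes) and Klf4, Esrrb, Nr5a2, Tbx3 and Tfcp2l1 in Smad2/3 DKO (3.05%). The differences were 2.04 for Esrrb, 2.27 for Nr5a2 and 1.83 for Tfcp2l1, Tbx3 was at least 9.34-fold higher, and Klf4, detected in 1 of the 3 kept Smad2/3 DKO libraries, has no size. Without the same libraries Nanog was lower in d2 Smad3 KO (0.321% of all genes lower).

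At d3 most of the set stood above WT in both genotypes that lack Smad2. The mean of Nanog went the other way, by -0.98 in Smad2/3 DKO and -0.23 in Smad2 KO. In the latter it was -0.61 without the d3 library that stood apart. In Smad2/3 DKO 7 of 10 genes were higher, against 9.50% of all genes, and the median difference was 2.54 against -0.03 over all genes. In Smad2 KO 6 were higher (Klf2 2.88, Klf5 1.73, Esrrb 3.33, Nr5a2 3.24, Zfp42 2.73 and Tfcp2l1 2.50, adjusted p of 0.0038 to 0.023), against 2.31% of all genes. The second features of Esrrb and Nr5a2 gave 0.11 (adjusted p = 0.84) and 0.74 (0.34) in Smad2 KO. The call for Klf2 was lost without d3 WT replicate 4 (0.059) and that for Klf5 without d3 WT replicate 3 or 4 or d3 Smad2 KO replicate 1 (0.053 to 0.087). Without the d3 library that stood apart these 6 were again higher in Smad2 KO, with smaller differences of 2.19, 1.495, 2.67, 2.77, 2.10 and 2.09. Klf4 also passed the test (adjusted p = 0.033, 7 of 10 against 2.74% of all genes), but no library of either group detected it, so that it is not counted as higher. Leaving out that library raised the count in Smad2/3 DKO to 8 (12.4% of all genes) by adding Tcl1, which 1 of the 4 libraries detected. In d3 Smad3 KO none was called with all libraries (0.517% of all genes higher, 2 members at an unadjusted p under 0.05), and without the library that stood apart Nr5a2 was higher (1.85, adjusted p = 0.027) and Tbx3 lower, against 6.34% of all genes called either way.

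**Figure D3:**
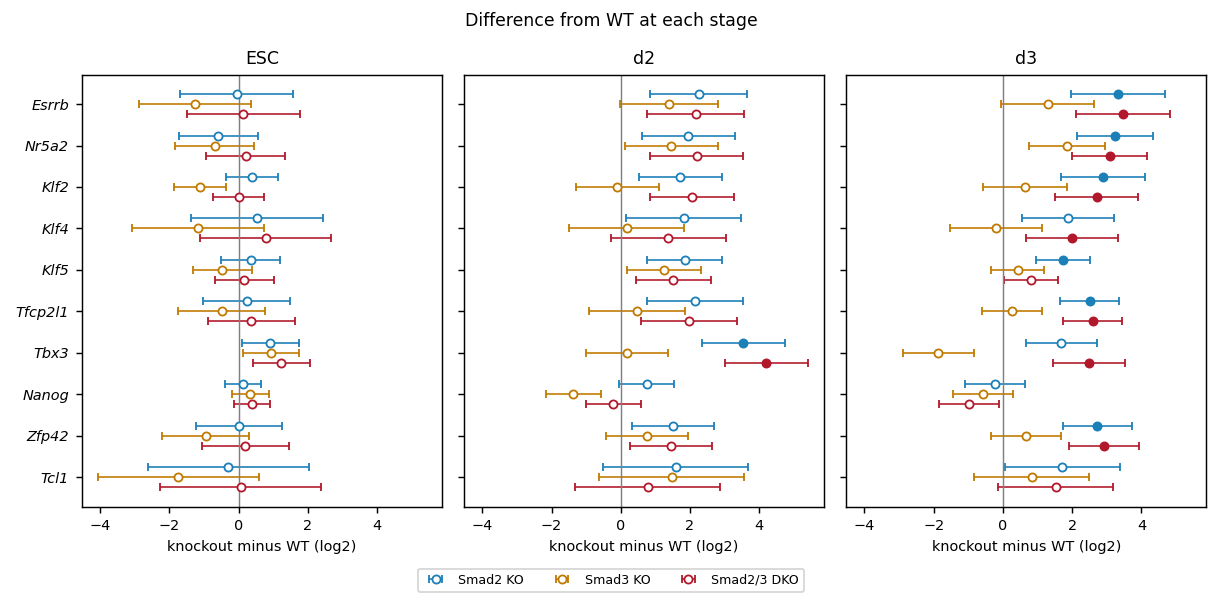
Knockout minus WT in log2 units (horizontal axis) for each gene (vertical axis) in ESCs, d2 EBs and d3 EBs, in Smad2 KO (blue), Smad3 KO (orange) and Smad2/3 DKO (red), over all libraries. Bars are 95% intervals, and filled points passed the test over all features. Points of Klf4, Tbx3 and Tcl1 at d2 and of Klf4 and Tcl1 at d3 use WT signals below detection as measured and are not sizes of change. No point is filled in ESCs, only Tbx3 at d2, and 6 Smad2 KO and 7 Smad2/3 DKO points at d3.

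Smad2/3 DKO and Smad2 KO were compared to see what loss of Smad3 added. Between Smad2/3 DKO and Smad2 KO no member was called at ESC, d2 or d3 with all libraries, where 0%, 0.0103% and 4.83% of all genes were called and 0, 1 and 1 of the 10 had an unadjusted p under 0.05, and the d3 intervals ran from -1.85 to 1.82 and so leave room for differences of that size. Without the d3 library that stood apart Klf4 was called higher in Smad2/3 DKO, by at least 1.73-fold (adjusted p = 0.0074, against 7.47% of all genes called either way), from 6.52, 6.25 and 6.42 in Smad2 KO, none of them detected, to 6.97 to 8.01. Set beside the parent clone KT15, 4 of 4 Smad2/3 DKO clones lay above it at d3 for 6 of the 8 genes it detected and below it for the other 2, and at d2 they lay above it for 3 of the 8. That compares 4 clones with 1 library of their parent and has no test. The share of all genes that lay so is not given, and the counts are not read as a trait of these genes.

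Other genes of the same and neighbouring states were counted from fixed lists. Of 6 other naive genes tested, 5 fell to d2 in WT (14.0% of all genes), among them Fbxo15 (-4.54) and, by at least 2.41-fold and 4.06-fold to levels below detection, Prdm14 and Pecam1. At d3 Dppa3 (3.96), Fbxo15 (2.39) and Pecam1 (at least 1.44-fold) were higher in Smad2/3 DKO than in WT (9.50% of all genes) while none was lower (7.51%). Of 8 genes of LIF and Stat3 signalling, 6 fell to d2 in WT, among them the feedback inhibitor Socs3 (-5.05) and Bcl3 (at least 5.45-fold), and 2 rose, Jak1 and Socs2, against 14.0% and 14.5% of all genes. At d3 Socs3 (2.20), Bcl3 (at least 1.81-fold), Junb (1.72) and the receptor subunit Il6st (0.72) were higher in Smad2/3 DKO and Jak1 (-1.18) and Socs2 (-0.83) lower, and in Smad2 KO 3 of the 8 were higher, Stat3, Socs3 and Bcl3 (2.31% of all genes). The count in Smad2 KO is with all libraries only. Over these 8 genes the mean log2 level in d3 Smad2 KO ran from 8.97 to 9.98. Without the d3 library that stood apart it ran from 8.97 to 9.15, against 8.24 to 8.65 in d3 WT. Of 10 general pluripotency genes none was called in WT at d2 by limma (3 at an unadjusted p under 0.05), and at d3 Smad2/3 DKO had Dppa4 (1.88) and Utf1 (1.64) higher and Pou5f1 (-0.97) and the Nodal co-receptor Tdgf1 (at least 4.08-fold) lower. Of 9 primed genes 7 rose to d2 in WT (14.5% of all genes), and 5 were lower in d3 Smad2/3 DKO (7.51%), Zic2 (-3.33), Pim2 (-2.58), Otx2 (-2.13) and, below detection there, Fgf5 (at least 27.7-fold) and Lef1 (at least 2.25-fold).

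Markers of other cells moved with the d3 result. Of 11 trophectoderm genes 9 were higher in d3 Smad2/3 DKO than in WT (9.50% of all genes), among them Plac1 (at least 41.03-fold) and Gata2 (4.32 on the log2 scale), 1 was lower (7.51%), Eomes (at least 9.26-fold), and Cdx2 differed by -0.54 (adjusted p = 0.83). Their summed signal was 31680 to 50900 in d3 Smad2/3 DKO, 13000 to 30920 in d3 Smad2 KO, 2074 to 4140 in d3 Smad3 KO and 3916 to 15210 in d3 WT, and only Eomes was undetected in every d3 Smad2/3 DKO library, while Ascl2, Gata3, Hand1 and Plac1 were undetected in every d3 WT library. The mean log2 level of the 11 genes was 8.243 to 9.488 in d3 Smad2 KO, against 7.358 to 8.869 in d3 WT. Without the d3 library that stood apart it was 9.285 to 9.488 in Smad2 KO. Of 7 germ cell genes Dppa3, Tfap2c and Ddx4 were higher in d3 Smad2/3 DKO and none was lower, of 7 primitive and visceral endoderm genes 2 were higher and 4 lower, all 7 primitive streak genes were lower and detected in no d3 Smad2/3 DKO library, by at least 4.09-fold for Wnt3 to at least 62.0-fold for Lhx1, and of 2 fibroblast genes tested 1 was lower. The part of such cells in the levels of the naive genes was not tested.

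Over the 12 groups 8 of the 10 genes followed a common course. Each gene's group means, with signals below detection as measured, were set against the mean of the other 9 members after scaling, and Pearson r was 0.896 to 0.992 for all but Tbx3 (0.779) and Nanog (0.62), with Tfcp2l1 the highest. These points share libraries and the fall from ESC to EB, and the r describe 12 group means only. The genes outside the set whose group means were most like its average, out of 4606 with a range of at least 1, were AU018091 (r = 0.986), Mapt (0.985), Rfx2 (0.984), H2-M5 (0.983), Alpk3 (0.982), Mia (0.978), Jam2 (0.976) and Plaur (0.975). Without the 4 libraries 7 of these 8 stayed among the first 8, and Mov10 took the place of Plaur.

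**Figure D4:**
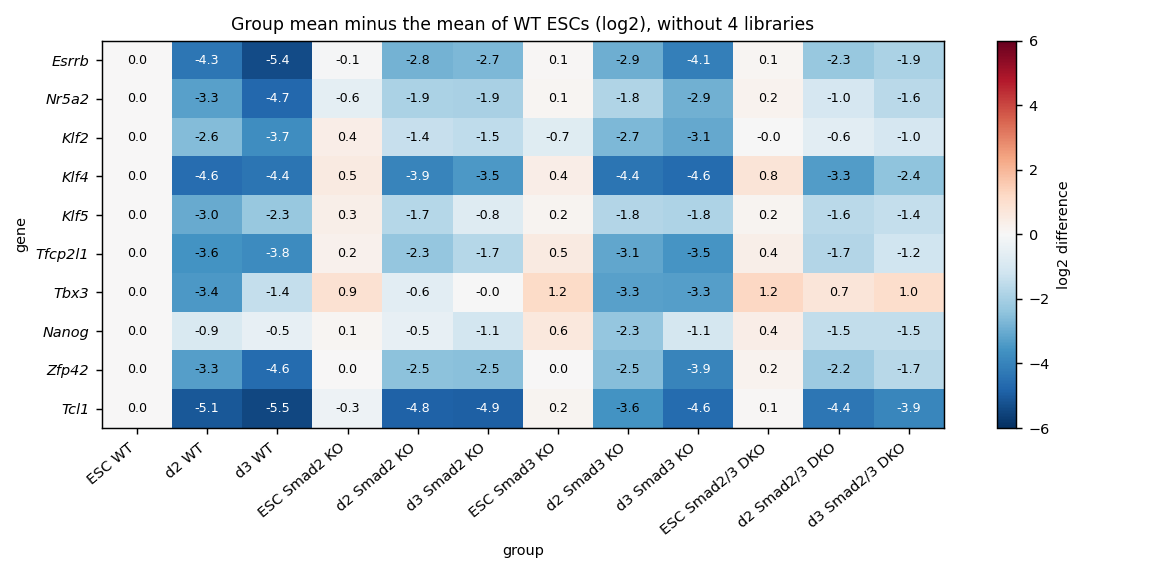
Group mean minus the WT ESC mean in log2 units (colour and printed value) for the 10 genes (rows) in the 12 groups (columns), without the 4 libraries that stood apart. Blue is below WT ESCs, and signals below detection enter as measured. In the d3 WT column Nanog is nearest to 0, at -0.50, and Tbx3 is above the WT ESC level in all 3 Smad2/3 DKO groups and far below it in Smad3 KO EBs.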

How the data were processed

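RNA of the 45 samples was hybridised to Illumina MouseWG-6 v2.0 arrays, which have 1 colour. The authors deposited average bead intensities without background correction and a detection p-value per feature, made with GenomeStudio 2009.2 per the labels, and left out 3 ESC arrays as outliers. A second table that the authors deposited holds log2 values, background-corrected and quantile-normalized, and was used as an alternative only. A genome build for the array annotation is not given in the sources used here, and the gene symbols are those of the platform annotation: 34885 features carried 1 symbol, 18 several and 10378 none, and 34807 of the single symbols were found in RefSeq. The number of arrays limits the precision.

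Intensities were corrected by normexp, quantile-normalized and logged with an offset of 16 by neqc of limma 3.58.1 in R 4.3.3. Features were tested if the detection p was under 0.01 on at least 3 of the 45 arrays, and a gene was represented by its brightest tested feature. Stage changes were fitted with lmFit and eBayes of limma on the arrays of 1 genotype, genotype differences on the arrays of 1 stage, and differences in change on all 45 arrays. P-values were two-sided and adjusted by Benjamini-Hochberg over all tested features of a comparison. A feature not detected on any array of a group was given a bound, the brighter mean against the higher of the lowest detected signal and the value of the feature itself on each array. The 10 genes are the named genes, with the 8 genes most like their average, and other lists are given by counts. The members and lists were chosen with earlier results of these data known. The scripts were tested on simulated data. Clones and lines are separate cultures by the labels, but clones of Smad3 KO and of Smad2/3 DKO share a parent, so that their spread may understate that between independent lines.

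Alternatives were no background correction, scaling by the median, the deposited log2 table, no filter, other arrays in the fit, a block for replicate number or clone, other features of a gene, leaving out each array, and leaving out the 4 libraries that stood apart. A replicate number in WT names a line, and the labels name the clone in the knockouts, so that these pair stages within a genotype. Residuals of the same line or clone at 2 stages correlated with a median of 0.0669 over 42 pairs (20 over 0.1), and of the same number in 2 genotypes at one stage with a median of 0.0111 over 66 pairs. No 2 arrays were identical, the highest correlation within a group being 0.98682.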

Additional observations from a re-analysis of the deposited data

Results flagged for a closer look

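Of 90 sets of 4 values, each of 1 gene in 1 group of 4 libraries, 20 held a highest or lowest value far from the other 3 relative to the range of the set. Chance gives about 1 in 20 for a single set. These sets share libraries and their genes go together, so that the count of 20 cannot be set against that rate. Of these 20 values, 9 were in libraries that stood apart from their label. In the library labelled d2 Smad2 KO replicate 4 these were Klf4 at 10.7, Klf5 at 14.4, Zfp42 at 13.7, Tcl1 at 11.2 and Tfcp2l1 at 13.3, and in that labelled d3 Smad2 KO replicate 4 they were Klf2 at 13.4, Klf4 at 10.2, Esrrb at 13.9 and Tcl1 at 10.3, each above the other 3 of its group.

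Clone CCE.2E7 of Smad3 KO held 6 of the other 11. At d2 it stood below the other 3 clones for Klf5 (10.9 against 12.5 to 12.7), Esrrb (9.95 against 11.3 to 11.4), Zfp42 (10.5 against 11.03 to 11.11) and Tcl1 (5.08, not detected, against 7.47 to 7.79), and above them for Nanog (10.2 against 9.37 to 9.44). At d3 it stood below them for Klf2 (7.71 against 9.503 to 9.68).

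The remaining 5 were spread over WT and Smad2/3 DKO. In WT ESCs Klf5 was lower in line CCB (13.6 against 14.1 to 14.2) and Zfp42 lower in line CCE (12.9 against 13.6 to 13.7), and in d2 WT EBs Tbx3 was higher in line CCF (6.71 against 5.45 to 5.58, all not detected). In d3 Smad2/3 DKO clone 2G9 was lower for Zfp42 (11.2 against 11.9 to 12.0) and Nanog (9.77 against 10.6 to 10.7).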

How the results depend on the processing

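Of 59 called changes of single genes none reversed under any setting. Calls were lost in 3 with no background correction, 3 with median scaling, 1 with the deposited log2 table, 10 with no filter on dim features, 7 with other arrays in the fit and 1 without the 4 libraries that stood apart, in 67 of 746 refits that left out 1 array and in 15 of 54 by another feature of the gene. Median scaling moved the median of all features in d3 Smad2/3 DKO against WT to -0.223 from -0.0281, and the differences of the 10 genes stand relative to it. With the replicate number as a block 3 calls were lost of 59. With the clone as a block 2 were lost of 44, and the other 15, between genotypes, could not be estimated.

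The number of genes lower in WT at d3 against d2 went from 2 to 0 with no filter and 0 with other arrays in the fit (0 to 3 leaving out 1 array). In Smad2 KO, d2 against ESC went from 0 to 2 with other arrays and 10 without the 4 libraries (0 to 7, the latter without d2 Smad2 KO replicate 4), and d3 against ESC from 0 to 3 and 10 (0 to 6, without d3 Smad2 KO replicate 4). In Smad3 KO, d2 against ESC went from 2 to 4 with other arrays and 8 without the 4 libraries (1 to 8), d3 against d2 from 0 to 1 without them (0 to 1), and d3 against ESC from 3 to 1 with no filter, 1 with the clone and 1 with the replicate number as a block, 8 with other arrays and 9 without the 4 libraries (1 to 9). The most came without ESC Smad3 KO replicate 4.

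The number higher than WT in d2 Smad2 KO went from 1 to 0 with no background correction, 0 with no filter and 2 with other arrays (0 to 1), in d2 Smad2/3 DKO from 1 to 2 with no background correction, 3 with other arrays, 2 with the replicate block and 5 without the 4 libraries (1 to 8, with 8 without d2 Smad2 KO replicate 4 and 3 without d2 Smad3 KO replicate 2), and in d3 Smad3 KO from 0 to 1 without them (0 to 1). The number whose change exceeded that of WT went from 0 to 2 without the 4 libraries for Smad2 KO from ESC to d3 (0 to 1). For Smad2/3 DKO it went from 0 to 2 with other arrays and 1 without the libraries to d2 (0 to 1), from 0 to 1 without them from d2 to d3, and from ESC to d3 from 0 to 6 with other arrays, 2 with the replicate block and 6 without the libraries (0 to 4, with 4 without d2 Smad2 KO replicate 4, d3 Smad2 KO replicate 4 or ESC Smad3 KO replicate 4). Between d3 Smad2/3 DKO and Smad2 KO it went from 0 to 1 without them (0 to 1). The causes were not tested. Leaving out 1 array moved the counts of WT against ESC at d2 (10 to 10) and d3 (8 to 9), of Smad2/3 DKO at d2 (6 to 8) and d3 (8 to 9), and of d3 Smad2 KO (4 to 7) and d3 Smad2/3 DKO (6 to 8) against WT by at most 1.5 times. Klf4 and Tcl1 were at or near the lowest detected signal in most EBs, so that their EB levels have no order there.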

Other observations

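Clone CCE.2E7 was the lowest of the 4 Smad3 KO clones for 7 of the 10 genes, Klf2, Klf5, Esrrb, Nr5a2, Zfp42, Tcl1 and Tfcp2l1, on both days. Over all 9666 genes it was the lowest for 36.4% at d2, 31.7% at d3 and 20.6% on both. In ESCs its level of Esrrb was 13.99 and of Tfcp2l1 12.38, beside 14.09 and 12.89 in clone 1H1. The clone was picked after its values were seen, and the difference has no test.

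In d2 Smad2/3 DKO clone 1F11 gave the highest Tcl1 (7.15) and Nr5a2 (10.17) of the 4 clones, and again at d3 (7.40 and 10.12). No ESC library of this clone was analysed here.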
